A study of Homo sapiens with 4 samples.

Results

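The genes described here are 45 genes of mitosis and of the G2/M transition. They were measured in UMUC3 and SW780, established cell lines from human bladder cancers, with and without knockdown of SCD1, a desaturase that turns saturated into monounsaturated fatty acids. They were chosen by name from textbook roles (cyclins, kinases, checkpoint, kinetochore, motor, spindle and cytokinesis genes), with earlier results of these data known. Each was matched on the gene name in the expression table of each line. All 45 were found in both tables, among 30148 genes for UMUC3 and 17752 for SW780, and all 45 had at least 1 CPM in each line. Levels in CPM are reads of a gene after bringing all libraries to one common size. The 4 groups were UMUC3 shSCD1 (genotype given as SCD1 knockdown, made with lentivirus), UMUC3 shNT (genotype given as WT), SW780 shSCD1 (SCD1 knockdown, lentivirus) and SW780 shNT (WT). UMUC3 cells were grown in MEM and SW780 cells in DMEM, both with fetal bovine serum and with penicillin and streptomycin, and RNA was sequenced from TruSeq libraries. Each group held 1 library, and the labels do not say how many cultures, clones or hairpins stand behind it. Without replicates no test can be made inside a line, so every "higher" or "lower" below compares 1 library with 1 other. The tables name their libraries first and second. The second was read as shSCD1 because each table is named for shSCD1 and gives second over first. The targeted gene SCD was also lower in the second library of both lines. Every direction in a line would turn round if its columns stood in the other order.

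A dividing cell raises CDK1 with cyclins A and B in G2, removes the inhibitory phosphates of CDK1 with CDC25 phosphatases, and so enters mitosis. Chromosomes are then joined to the spindle at kinetochores, held by the spindle checkpoint until all are attached, and released when CDC20 turns on the anaphase-promoting complex (APC/C), which marks cyclin B and securin for destruction. Most of these genes are switched on together late in the cycle by the MuvB complex with B-MYB and FOXM1, through promoter elements called CHR (cell cycle genes homology region), often beside CCAAT boxes that bind NF-Y, and their RNA is low in resting cells.

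Promoter sequences (RefSeq, GRCh38.p14, 250 bases before to 50 after the start) are shown for 6 genes that stand at the ends of the ratios below: NEK2 and ANLN, the lowest in UMUC3; SPC25, the highest in UMUC3; KIF20A, the highest in SW780; and PLK1 and KIF23, which were lower in UMUC3 and higher in SW780. Each runs 5′ to 3′ along the strand of its gene, with CHR letters (TTTGAA or TTCGAA on either strand, so also TTCAAA) and CCAAT boxes (CCAAT, or ATTGG on the other strand) in capitals.
NEK2 (chr1:211675572-211675871, minus strand): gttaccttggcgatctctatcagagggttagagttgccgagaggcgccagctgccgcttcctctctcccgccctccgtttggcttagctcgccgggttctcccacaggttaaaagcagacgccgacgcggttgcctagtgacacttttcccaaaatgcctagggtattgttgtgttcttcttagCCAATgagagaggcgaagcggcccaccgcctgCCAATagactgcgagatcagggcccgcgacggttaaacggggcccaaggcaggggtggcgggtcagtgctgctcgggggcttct
ANLN (chr7:36389612-36389911, plus strand): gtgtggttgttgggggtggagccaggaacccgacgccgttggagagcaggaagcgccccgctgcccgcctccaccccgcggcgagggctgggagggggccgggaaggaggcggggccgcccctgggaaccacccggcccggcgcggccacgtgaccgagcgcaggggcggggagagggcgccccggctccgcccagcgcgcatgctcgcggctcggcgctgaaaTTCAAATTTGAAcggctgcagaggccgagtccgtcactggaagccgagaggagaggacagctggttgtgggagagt
PLK1 (chr16:23678639-23678938, plus strand): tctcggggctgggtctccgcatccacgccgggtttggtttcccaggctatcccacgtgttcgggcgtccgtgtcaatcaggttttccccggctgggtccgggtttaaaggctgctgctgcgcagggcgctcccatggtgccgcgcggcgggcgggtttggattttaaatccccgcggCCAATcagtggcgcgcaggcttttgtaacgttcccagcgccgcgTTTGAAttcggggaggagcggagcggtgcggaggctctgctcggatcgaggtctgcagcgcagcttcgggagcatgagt
SPC25 (chr2:168890381-168890680, minus strand): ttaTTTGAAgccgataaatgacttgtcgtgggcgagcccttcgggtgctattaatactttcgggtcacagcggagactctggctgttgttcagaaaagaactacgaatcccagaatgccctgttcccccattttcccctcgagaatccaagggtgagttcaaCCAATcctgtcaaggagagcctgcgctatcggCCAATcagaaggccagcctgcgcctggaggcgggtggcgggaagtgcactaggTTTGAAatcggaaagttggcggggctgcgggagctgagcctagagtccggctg
KIF20A (chr5:138178862-138179161, plus strand): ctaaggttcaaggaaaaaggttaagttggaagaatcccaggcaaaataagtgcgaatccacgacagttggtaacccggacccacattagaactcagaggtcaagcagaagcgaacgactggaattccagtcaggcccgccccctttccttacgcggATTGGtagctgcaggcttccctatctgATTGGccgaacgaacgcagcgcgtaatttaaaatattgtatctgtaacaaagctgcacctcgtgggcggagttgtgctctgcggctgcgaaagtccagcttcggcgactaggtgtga
KIF23 (chr15:69414099-69414398, plus strand): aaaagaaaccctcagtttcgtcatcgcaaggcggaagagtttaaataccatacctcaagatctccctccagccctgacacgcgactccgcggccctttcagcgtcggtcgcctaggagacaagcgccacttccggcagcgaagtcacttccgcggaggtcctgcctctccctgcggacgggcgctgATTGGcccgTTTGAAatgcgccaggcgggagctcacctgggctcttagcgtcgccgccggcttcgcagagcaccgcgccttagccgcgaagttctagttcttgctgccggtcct

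The PLK1 promoter held a CCAAT box starting 73 bases and a CHR starting 29 bases before the start of transcription. In ANLN, TTCAAA from base −26 was directly followed by TTTGAA, and no CCAAT box was in the window. NEK2 and KIF20A had a pair of CCAAT boxes each and no CHR of the letters searched. SPC25 had a pair of each, 1 CHR starting 3 bases before the start, and KIF23 had a CCAAT box at −64 followed by a CHR at −55. Promoters were listed for 39 of the 45 genes, 49 promoters in all, and CHR letters were in 33 of them (67.3%), against 16.4% of all 35116 promoters. CCAAT boxes were in 37 (75.5%, against 34.6% of all promoters), and both motifs in 28 (57.1%, against 6.38%). The 30 genes with CHR letters in a promoter had a median log2 ratio of −0.089 in UMUC3 and 0.16 in SW780, and the 9 without had −0.21 and 0.19. A match of letters is a description and not a site of binding.

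Reads summed over the genes of each table came to 32540576 in UMUC3 shSCD1 and 22818368 in UMUC3 shNT, and to 25549737 in SW780 shSCD1 and 34087871 in SW780 shNT. The 45 genes had between 450 and 29437 reads each. The upper bound of the 95% counting interval of a fold change lay a median of 8.51% above its lower bound in UMUC3 and 10.6% in SW780. SCD (ENSG00000099194), the targeted gene, stood at 59.6 CPM (shSCD1) and 264 CPM (shNT) in UMUC3 and at 92.1 CPM (shSCD1) and 592 CPM (shNT) in SW780. As SCD helped to set the order of the libraries, its levels are no separate check of the knockdown. Epithelial and urothelial markers summed to 263 CPM (shSCD1) and 536 CPM (shNT) over 9 of 12 genes in UMUC3, mostly KRT8 and KRT18. PPARG was at 10.1 CPM (shSCD1) and 6.14 CPM (shNT). KRT19 was at 0 reads, UPK1A and UPK2 were under 1 CPM, and KRT7, GATA3 and FOXA1 were under 5 CPM. EPCAM, CDH1 and UPK3A were not among the genes given for UMUC3. UMUC3 thus expressed KRT8 and KRT18, with 6 of the 9 markers in its table under 5 CPM. In SW780 they summed to 10111 CPM (shSCD1) and 12237 CPM (shNT) over 12 of 12. Fibroblast markers summed to 1.11 CPM (shSCD1) and 3.07 CPM (shNT) over 4 of 5 genes in UMUC3, and to 249.8 CPM (shSCD1) and 178 CPM (shNT) over 5 of 5 in SW780, nearly all of it COL3A1 and LUM, with DCN and PDGFRB at 0 reads. Endothelial markers summed to under 6 CPM over 3 of 4 genes in every library. Of the blood cell markers, 1 of 4 was given for UMUC3 (CD68) and 4 of 4 for SW780. CD68 alone exceeded 1 CPM (47.5 and 67.0 CPM in UMUC3 shSCD1 and shNT, 12.6 and 17.4 CPM in SW780 shSCD1 and shNT). The part of these differences in the results below was not tested.

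The lowest level of the 45 genes in any library was 17.5 CPM (CENPA in SW780 shNT). Per kilobase of exon (RPKM from GENCODE 29 exon lengths), the median gene stood at 38.1 RPKM in UMUC3 shSCD1 and 40.2 in UMUC3 shNT, and at 28.1 RPKM in SW780 shSCD1 and 24.6 in SW780 shNT. UBE2C, the ubiquitin-conjugating enzyme of the APC/C, had the highest level in UMUC3 (227 RPKM in shSCD1 and 195 in shNT). TOP2A, the topoisomerase that untangles sister DNA, had the highest in SW780 (133 RPKM in shSCD1 and 108 in shNT). At the low end were KIF14 in UMUC3 shSCD1 (8.83 RPKM), ESPL1 in UMUC3 shNT (7.51 RPKM) and CDC25C in SW780 (7.05 RPKM in shSCD1 and 6.33 in shNT). Together the 45 genes took 0.878% of the reads of genes in both tables in UMUC3 shSCD1 (0.875 to 0.882; exact Clopper-Pearson 95% interval), against 0.943% in UMUC3 shNT (0.939 to 0.947). In SW780 they took 0.720% in shSCD1 (0.717 to 0.724), against 0.615% in shNT (0.612 to 0.618). The summed share was thus lower with SCD1 knocked down in UMUC3 and higher in SW780. In bulk RNA, fewer cells in G2 or mitosis and less RNA per such cell cannot be told apart. Intervals cover counting error only: the tables hold no molecular identifiers, so copies of 1 molecule cannot be told from separate molecules.

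**Figure D1:**
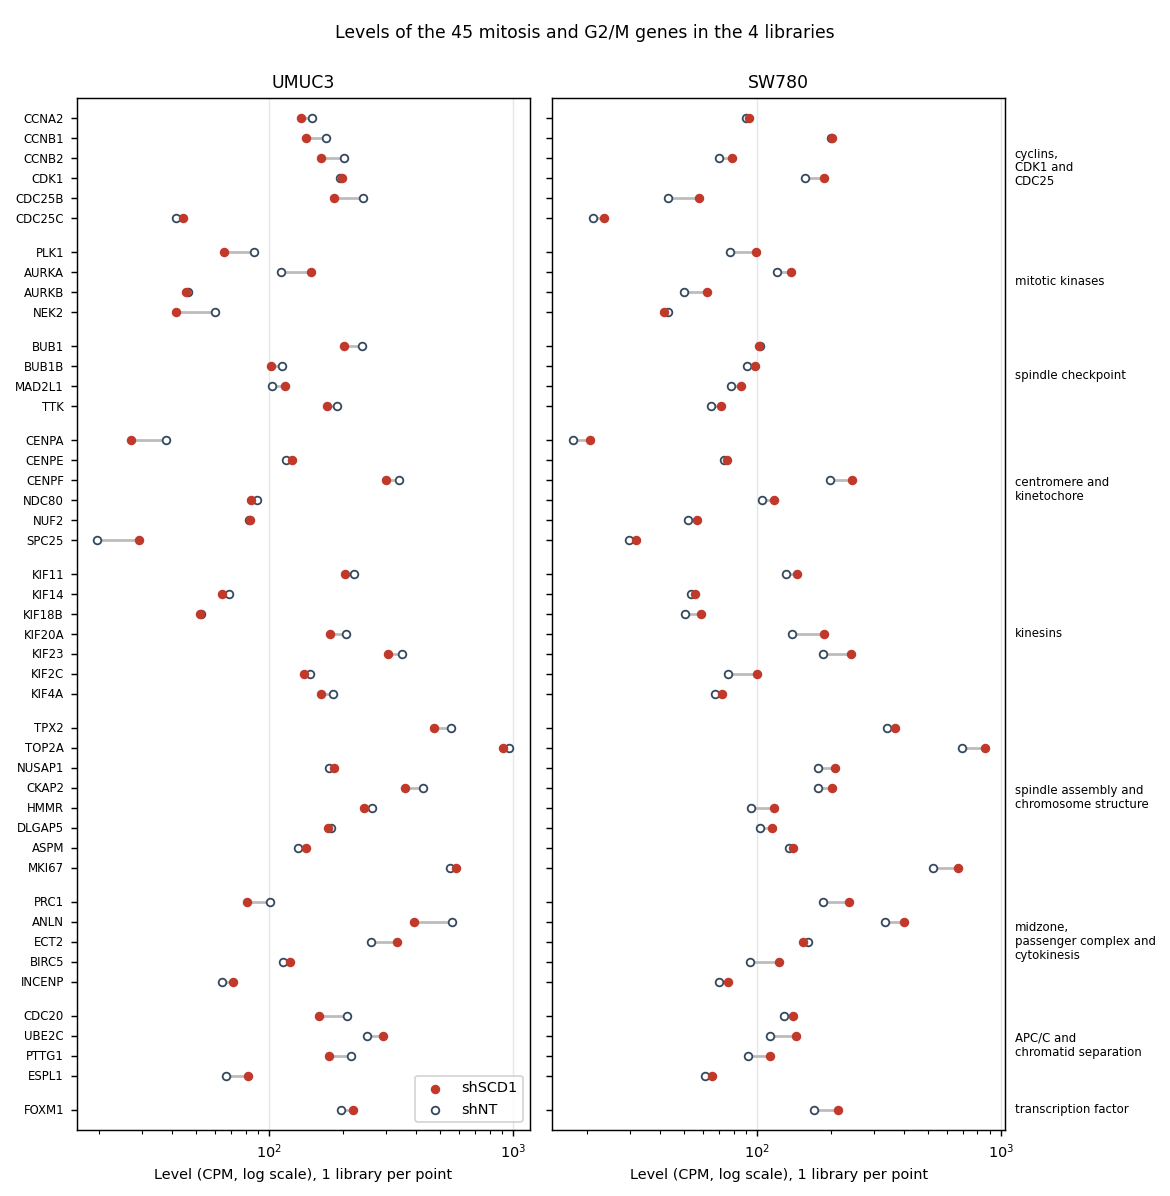
Level of each of the 45 genes in CPM (log axis) in UMUC3 (left) and SW780 (right), grouped by role; filled points are the shSCD1 library, open points the shNT library, and a grey line joins the pair. In SW780 the filled point lies to the right for 42 of 45 genes; in UMUC3 it lies to the left for 29.

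The question in each line was which of these genes differed where SCD1 had been knocked down. In UMUC3, 29 of 45 were lower in the shSCD1 library and 16 higher, with a median log2 ratio of −0.094, against 0.037 over all 14063 genes with at least 1 CPM. Ratios are log2((shSCD1 CPM + 1)/(shNT CPM + 1)). Among all genes 45.7% were below 0 and 54.3% above. By a size rule of 1.2-fold on this scale, 10 of the 45 were lower (22.2%), which is near the 20.4% of all genes, and 4 were higher (8.89%), where 27.6% of all genes were. In SW780, 42 of 45 were higher in the shSCD1 library, where 48.5% of all genes were higher and 51.5% lower, and the median was 0.18, against −0.0079 over all 12880 genes. Of the 45, 15 were higher by 1.2-fold in SW780 (33.3%, against 15.8% of all genes) and 0 lower (against 14.5%).

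The differences were small throughout. No gene of the 45 reached 1.5-fold in either line, a size passed upwards by 10.1% and downwards by 6.86% of all genes in UMUC3, and by 5.05% and 3.7% in SW780. Accordingly 0 of the 45 reached 2-fold, where 2.47% of all genes were higher and 2.18% lower in UMUC3, and 1.48% higher and 1.06% lower in SW780. All genes here start at 1 CPM, whereas the lowest of the 45 stood at 17.5 CPM, and no background matched in level was made. With a floor of 5 CPM, 24.8% of all genes were higher and 19.9% lower by 1.2-fold in UMUC3. In SW780 these shares were 13.4% higher and 13.4% lower. The ratios of the 45 genes ran from −0.52 (NEK2) to 0.55 (SPC25) in UMUC3 and from −0.064 (ECT2) to 0.43 (KIF20A) in SW780. Near the 1.2-fold size, CCNB1 (−0.26) lay just inside and CKAP2 (−0.24) just outside in UMUC3, and CENPF (0.30) just inside and CDK1 (0.26) just outside in SW780. Some genes changed side of the 1.2-fold size under another scaling, pseudocount, gene set or trend correction. These were CCNB1, PTTG1 and ESPL1, past it as given here, and BUB1, CKAP2, TPX2, KIF20A, KIF23 and UBE2C, under it, in UMUC3, and CDK1, ANLN and NUSAP1, under it, in SW780. The authors' deposited tables, in which the GFOLD value is a cautious log2 fold change that is set to 0 where counting error could account for it, give 27 of the 45 a value below 0 in UMUC3 (against 34.9% of all genes) and 7 a value above 0 (against 25.8%). In SW780 the authors' deposited tables give 33 of the 45 a GFOLD value above 0 (against 25.7% of all genes) and 0 a value below 0 (against 26%). The authors' scaling in UMUC3 sits a median of 0.08 (log2) lower than totals of reads, and 5 genes near 0 changed sign under some scaling or trend correction there (CDK1, AURKB, NUF2, NUSAP1 and MKI67), as did BUB1 in SW780.

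**Figure D2:**
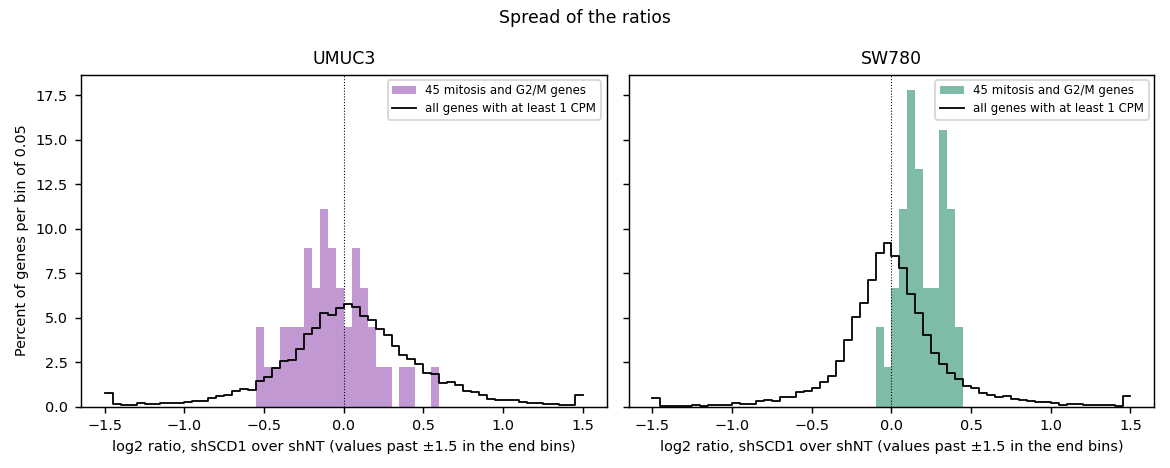
Log2 ratios of shSCD1 over shNT in UMUC3 (left) and SW780 (right): bars give the percent of the 45 genes, and the black line the percent of all genes with at least 1 CPM, in each bin of 0.05. The bars of SW780 lie almost wholly to the right of 0, with a median of 0.18, and those of UMUC3 spread on both sides around a median of −0.094.

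In UMUC3 the B-type cyclins and the phosphatase CDC25B were lower in the shSCD1 library, while CDK1 and CDC25C were near level. CCNB1, cyclin B1, stood at 142 CPM in the UMUC3 shSCD1 library, against 170.3 CPM in the UMUC3 shNT library, 1.203-fold lower (1.15 to 1.26), with the 95% counting interval in brackets. CCNB2, cyclin B2, stood at 164 CPM in the UMUC3 shSCD1 library, against 202 CPM in the UMUC3 shNT library, 1.24-fold lower (1.19 to 1.29). Both B-type cyclins were therefore past 1.2-fold, CCNB1 so narrowly that it was under that size in 3 of the alternatives tried (at −0.26 at its nearest to 0). CCNA2, cyclin A2, was nearer to level at 135 CPM (shSCD1) and 149 CPM (shNT). CDK1, their shared kinase, stood at 199 CPM (shSCD1) and 196 CPM (shNT), 1.017-fold higher (0.979 to 1.06), an interval that includes no difference. CCNB2 was thus past 1.2-fold in all alternatives tried, and CDK1 in none.

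In SW780 the same axis was level for cyclin B1 and higher for CDK1. CCNB1 stood at 203 CPM in the SW780 shSCD1 library, against 200.1 CPM in the SW780 shNT library, 1.016-fold higher (0.9797 to 1.05). CDK1 stood at 188 CPM in the SW780 shSCD1 library, against 157 CPM in the SW780 shNT library, 1.196-fold higher (1.15 to 1.24). CCNB2 stood at 78.8 CPM (shSCD1) and 69.5 CPM (shNT) and CCNA2 at 92.3 CPM (shSCD1) and 89.6 CPM (shNT) in SW780. No cyclin was past 1.2-fold there, and CDK1 was so with centred ratios (0.26) and with a trend in GC content and length removed (0.30). CDC25B, the phosphatase that starts CDK1 activation, lay on opposite sides in the lines. It stood at 184 CPM in the UMUC3 shSCD1 library, against 242 CPM in the UMUC3 shNT library, 1.31-fold lower (1.26 to 1.36), and at 57.8 CPM in the SW780 shSCD1 library, against 43.0 CPM in the SW780 shNT library, 1.34-fold higher (1.25 to 1.44). CDC25C, which acts at the entry into mitosis, had ratios of 0.10 in UMUC3 and 0.15 in SW780.

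The 4 mitotic kinases had ratios from −0.52 to 0.40 in UMUC3 and from −0.058 to 0.35 in SW780. NEK2, a centrosome kinase that separates the poles, had the lowest ratio of all 45 genes in UMUC3, with 41.3 CPM in the UMUC3 shSCD1 library, against 59.7 CPM in the UMUC3 shNT library, 1.45-fold lower (1.34 to 1.56). In SW780 it was near level at 41.4 CPM (shSCD1) and 43.2 CPM (shNT). PLK1, the polo-like kinase of mitotic entry, spindle assembly and cytokinesis, stood at 65.0 CPM in the UMUC3 shSCD1 library, against 86.8 CPM in the UMUC3 shNT library, 1.34-fold lower (1.26 to 1.42), and at 98.6 CPM in the SW780 shSCD1 library, against 77.2 CPM in the SW780 shNT library, 1.28-fold higher (1.21 to 1.35). PLK1 shares 12.5% of its exonic bases with other genes, ERN2 among them, so some of its reads could be theirs. AURKA, the kinase of centrosomes and spindle poles, was the higher one in UMUC3 with 149 CPM in the UMUC3 shSCD1 library, against 112 CPM in the UMUC3 shNT library, 1.32-fold higher (1.26 to 1.39), and its ratio in SW780 was 0.18. AURKB, the kinase of the chromosomal passenger complex, stood at 45.5 CPM (shSCD1) and 46.5 CPM (shNT) in UMUC3 and at 62.5 CPM in the SW780 shSCD1 library, against 49.9 CPM in the SW780 shNT library, 1.25-fold higher (1.17 to 1.34). AURKA and NEK2, which both act at centrosomes, thus lay at opposite ends of these 4 in UMUC3. AURKB was near 0 in UMUC3 and changed sign once a trend with GC content and length was removed.

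The 4 spindle checkpoint genes were under 1.2-fold in both lines, apart from BUB1 in UMUC3 with centred ratios (−0.28) and in the authors' deposited fold change (−0.32). Of all genes, 27.6% were higher and 20.4% lower by that size in UMUC3, and 15.8% higher and 14.5% lower in SW780. BUB1, a kinase at unattached kinetochores, stood at 202 CPM (shSCD1) and 239 CPM (shNT) in UMUC3, and 102 CPM (shSCD1) and 102 CPM (shNT) in SW780. BUB1B, which encodes BUBR1 of the mitotic checkpoint complex, had ratios of −0.15 in UMUC3 and 0.10 in SW780. TTK, the MPS1 kinase that starts checkpoint signalling, had −0.13 and 0.14. MAD2L1, which binds and holds back CDC20, was alone among the 4 above 0 in UMUC3 (0.18), and had 0.14 in SW780.

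Among centromere and kinetochore genes, the ends of the range in UMUC3 were CENPA and SPC25. CENPA, the histone H3 variant that marks centromeres, stood at 27.0 CPM in the UMUC3 shSCD1 library, against 37.6 CPM in the UMUC3 shNT library, 1.39-fold lower (1.26 to 1.53). For SW780 it was 20.6 CPM in the SW780 shSCD1 library, against 17.5 CPM in the SW780 shNT library, 1.18-fold higher (1.05 to 1.33). SPC25, a subunit of the NDC80 complex that binds microtubules, stood at 29.4 CPM in the UMUC3 shSCD1 library, against 19.7 CPM in the UMUC3 shNT library, 1.49-fold higher (1.33 to 1.67), the highest ratio of the 45 in that line. Its partner SPC24, which is not among the 45, stood at 13.3 CPM (shSCD1) and 7.10 CPM (shNT) in UMUC3, and 31.0 CPM (shSCD1) and 7.83 CPM (shNT) in SW780, 1.88-fold higher (1.56 to 2.26) in UMUC3 and 3.96-fold higher (3.44 to 4.56) in SW780. The other subunits of the same complex, NDC80 and NUF2, were near level in UMUC3 with ratios of −0.081 and 0.019, and had 0.16 and 0.12 in SW780. In UMUC3 the levels of the complex's genes therefore did not shift by one factor, SPC24 and SPC25 being past 1.2-fold and NDC80 and NUF2 not, with NUF2 changing sign between scalings.

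CENPF, a large protein of the outer kinetochore that peaks in G2, stood at 299.9 CPM (shSCD1) and 339 CPM (shNT) in UMUC3, and 244 CPM (shSCD1) and 198 CPM (shNT) in SW780. It was 1.13-fold lower (1.10 to 1.16) in UMUC3 and 1.23-fold higher (1.19 to 1.28) in SW780. CENPE, a kinetochore motor, had ratios of 0.083 and 0.043. Both lines had CENPF well above CENPE per length, at 25.7 and 13.1 RPKM in UMUC3 shSCD1 and 20.9 and 7.94 RPKM in SW780 shSCD1.

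The 7 KIF genes all lay below 0 in UMUC3 (against 45.7% of all genes) and above 0 in SW780 (against 48.5%), in every scaling tried. CENPE, a kinesin placed above with the kinetochore genes, lay above 0 in both lines (0.083 in UMUC3 and 0.043 in SW780). None of the 7 KIF genes was past 1.2-fold in UMUC3 (against 27.6% of all genes higher and 20.4% lower). In SW780, 3 of the 7 were higher past that size (against 15.8%). KIF20A (−0.29) and KIF23 (−0.27) were past it in UMUC3 in the authors' deposited fold change. KIF20A, which carries the passenger complex to the midzone, had the highest ratio of the 45 in SW780, with 187 CPM in the SW780 shSCD1 library, against 139 CPM in the SW780 shNT library, 1.35-fold higher (1.30 to 1.41). For UMUC3 it was 178 CPM in the UMUC3 shSCD1 library, against 206 CPM in the UMUC3 shNT library, 1.16-fold lower (1.11 to 1.203). KIF2C, which takes microtubules apart at centromeres, stood at 99.96 CPM in the SW780 shSCD1 library, against 75.9 CPM in the SW780 shNT library, 1.32-fold higher (1.25 to 1.39). KIF23, the motor of the centralspindlin complex, stood at 242 CPM in the SW780 shSCD1 library, against 187 CPM in the SW780 shNT library, 1.30-fold higher (1.25 to 1.34). In UMUC3 KIF2C had a ratio of −0.076 and KIF23 of −0.19. The other 4 were KIF11, which pushes the poles apart, KIF14, KIF18B and KIF4A, with ratios from −0.15 (KIF4A) to −0.011 (KIF18B) in UMUC3 and from 0.051 (KIF14) to 0.22 (KIF18B) in SW780.

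**Figure D3:**
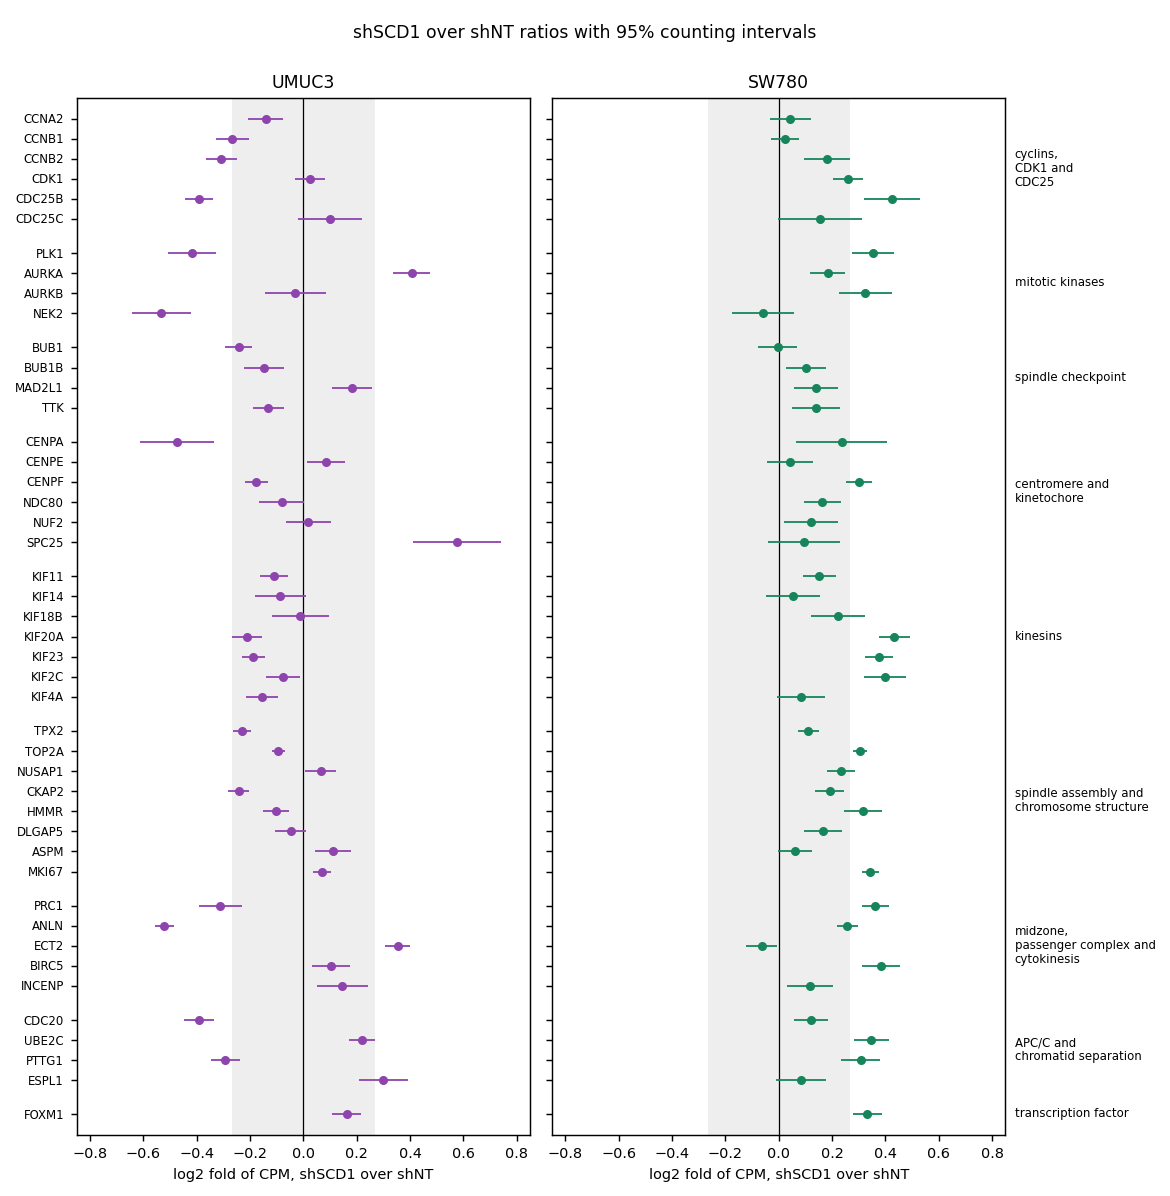
Log2 fold of CPM, shSCD1 over shNT, for the 45 genes grouped by role in UMUC3 (left) and SW780 (right); bars are exact 95% counting intervals of 1 library against 1, and the grey band marks folds under 1.2. The 7 KIF genes sit left of 0 in UMUC3 and right of 0 in SW780, and NEK2, ANLN and SPC25 reach farthest from 0 in UMUC3.

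Of the 8 genes of spindle assembly and chromosome structure, 0 were past 1.2-fold in UMUC3 (against 27.6% of all genes higher and 20.4% lower) and 3 were higher past that size in SW780 (against 15.8%). CKAP2 and TPX2 were past it in UMUC3 with centred ratios (−0.28 and −0.27) and in the authors' deposited fold change (−0.32 and −0.31). TOP2A stood at 905 CPM (shSCD1) and 965 CPM (shNT) in UMUC3, and 858 CPM (shSCD1) and 694 CPM (shNT) in SW780. TOP2A was 1.07-fold lower (1.05 to 1.09) in UMUC3 and 1.24-fold higher (1.21 to 1.26) in SW780. MKI67, the Ki-67 antigen that coats mitotic chromosomes and serves as the usual mark of cycling cells, stood at 580.1 CPM (shSCD1) and 553 CPM (shNT) in UMUC3, and 666 CPM (shSCD1) and 524 CPM (shNT) in SW780. It was 1.05-fold higher (1.03 to 1.07) in UMUC3 and 1.27-fold higher (1.24 to 1.30) in SW780. MKI67 was one of the genes that turned sign in UMUC3, being slightly below 0 in the authors' deposited fold change. TPX2, which activates AURKA on the spindle, stood at 474 CPM (shSCD1) and 556 CPM (shNT) in UMUC3, and 367 CPM (shSCD1) and 339.6 CPM (shNT) in SW780, so that in UMUC3 AURKA was higher while its activator was 1.17-fold lower (1.15 to 1.202).

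HMMR, a spindle pole protein also known as a hyaluronan receptor, had a ratio of −0.10 in UMUC3 and stood at 117 CPM (shSCD1) and 94.0 CPM (shNT) in SW780, 1.24-fold higher (1.18 to 1.31). CKAP2, a microtubule-stabilising protein, had ratios of −0.24 in UMUC3 and 0.19 in SW780. DLGAP5, which stabilises kinetochore fibres, had −0.048 in UMUC3 and 0.16 in SW780, and ASPM, a spindle pole protein, 0.11 and 0.062. All 8 lay above 0 in SW780 (against 48.5% of all genes), and 3 of 8 in UMUC3 (against 54.3%), among them NUSAP1 and MKI67 not in every scaling. NUSAP1, which links microtubules to chromatin, had 0.064 and 0.23, but another gene model covers 62.2% of its exons, so its counts are uncertain.

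The genes of the midzone, the passenger complex and cytokinesis held both a low and a high end in UMUC3. ANLN, the anillin scaffold of the contractile ring, stood at 391 CPM in the UMUC3 shSCD1 library, against 560.4 CPM in the UMUC3 shNT library, 1.43-fold lower (1.40 to 1.47). In SW780 ANLN stood at 399 CPM in the SW780 shSCD1 library, against 334 CPM in the SW780 shNT library, 1.195-fold higher (1.16 to 1.23). ECT2, the exchange factor that turns on RhoA at the division plane, went the other way, with 333 CPM in the UMUC3 shSCD1 library, against 261 CPM in the UMUC3 shNT library, 1.28-fold higher (1.24 to 1.32). It was the lowest of the 45 in SW780 at 154 CPM (shSCD1) and 161 CPM (shNT), 1.05-fold lower (1.00 to 1.09). ANLN and ECT2, which act at the same ring, therefore had opposite signs in each line, ECT2 being the higher one in UMUC3 and ANLN in SW780.

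PRC1, the bundler of midzone microtubules, stood at 81.2 CPM (shSCD1) and 101 CPM (shNT) in UMUC3, and 239 CPM (shSCD1) and 186 CPM (shNT) in SW780. It was 1.24-fold lower (1.17 to 1.31) in UMUC3 and 1.28-fold higher (1.24 to 1.33) in SW780. Other gene models, its antisense gene among them, cover 58.4% of its exons, and whether counting used strand was not stated, so its counts are uncertain. BIRC5, which encodes survivin of the passenger complex, stood at 122 CPM (shSCD1) and 113 CPM (shNT) in UMUC3, and 122 CPM (shSCD1) and 93.8 CPM (shNT) in SW780, 1.31-fold higher (1.24 to 1.37) in SW780. INCENP, the scaffold of that complex, had ratios of 0.14 in UMUC3 and 0.12 in SW780, and CDCA8, which encodes its borealin subunit, is not among the 45 and was named after its values were seen, had −0.072 and 0.16. Survivin and AURKB were thus past 1.2-fold in SW780, and INCENP and CDCA8 were not.

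Genes of the APC/C and of chromatid separation divided in UMUC3 into an activator and a substrate that were lower, and an enzyme and a protease that were higher. CDC20, the activator, stood at 159 CPM in the UMUC3 shSCD1 library, against 209 CPM in the UMUC3 shNT library, 1.31-fold lower (1.26 to 1.36). CDC20 is needed for the APC/C to act on securin. PTTG1, securin, which is destroyed so that sister chromatids can part, stood at 176 CPM in the UMUC3 shSCD1 library, against 216 CPM in the UMUC3 shNT library, 1.23-fold lower (1.18 to 1.27). UBE2C stood at 292 CPM in the UMUC3 shSCD1 library, against 250.4 CPM in the UMUC3 shNT library, 1.16-fold higher (1.13 to 1.204). ESPL1, separase, the protease that securin holds back, stood at 82.1 CPM in the UMUC3 shSCD1 library, against 66.7 CPM in the UMUC3 shNT library, 1.23-fold higher (1.15 to 1.31). Securin was lower and separase higher in the same UMUC3 library, but PTTG1 was under 1.2-fold once a trend with GC content and length was removed (−0.25), and ESPL1 with centred ratios (0.26) and in the authors' deposited fold change (0.22).

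In SW780 all 4 lay above 0 (against 48.5% of all genes). PTTG1 stood at 113 CPM in the SW780 shSCD1 library, against 91.4 CPM in the SW780 shNT library, 1.24-fold higher (1.18 to 1.30). UBE2C stood at 144 CPM in the SW780 shSCD1 library, against 113 CPM in the SW780 shNT library, 1.27-fold higher (1.22 to 1.33). Both were past 1.2-fold, where 15.8% of all genes were higher by that size. CDC20 and ESPL1 had smaller ratios, 0.12 and 0.081. FOXM1, the transcription factor that acts on many of these promoters, stood at 221 CPM (shSCD1) and 197 CPM (shNT) in UMUC3, and 215 CPM (shSCD1) and 170.4 CPM (shNT) in SW780. FOXM1 was 1.12-fold higher (1.08 to 1.16) in UMUC3, where most of the 45 genes were lower, and 1.26-fold higher (1.21 to 1.31) in SW780; 15.9% of its exonic bases are shared with ITFG2.

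The lines were then set side by side. The UMUC3 ratio was below the SW780 ratio for 37 of 45 genes, with a median difference (UMUC3 minus SW780) of −0.26, against 47.7% and 0.022 over the 11152 genes with at least 1 CPM in each line. This difference had no test, since each ratio rests on 2 libraries. Of the 45, 27 were below 0 in UMUC3 and above 0 in SW780, as were 22.5% of all genes. A further 15 were above 0 in both (against 26%), and 2 below 0 in both (against 25.6%), NEK2 and BUB1, with BUB1 at −0.0032 in SW780. ECT2 alone was above 0 in UMUC3 and below 0 in SW780 (against 26%). CDC25B, PLK1, PRC1 and PTTG1 were lower by 1.2-fold in UMUC3 and also higher by 1.2-fold in SW780, as were 3.61% of all genes, and 0 of the 45 met the reverse, as did 3.41% of all genes. Either way round, 7.02% of all genes were past 1.2-fold in opposite directions. No gene of the 45 was past 1.2-fold in the same direction in both lines (against 7.25%), and 20 were past it in neither (near the background, which was 43.3% of all genes). Across the 45 genes the ratios of the lines correlated with r = −0.15 (Pearson) and rho = −0.12 (Spearman), given as a description over genes that share their libraries.

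**Figure D4:**
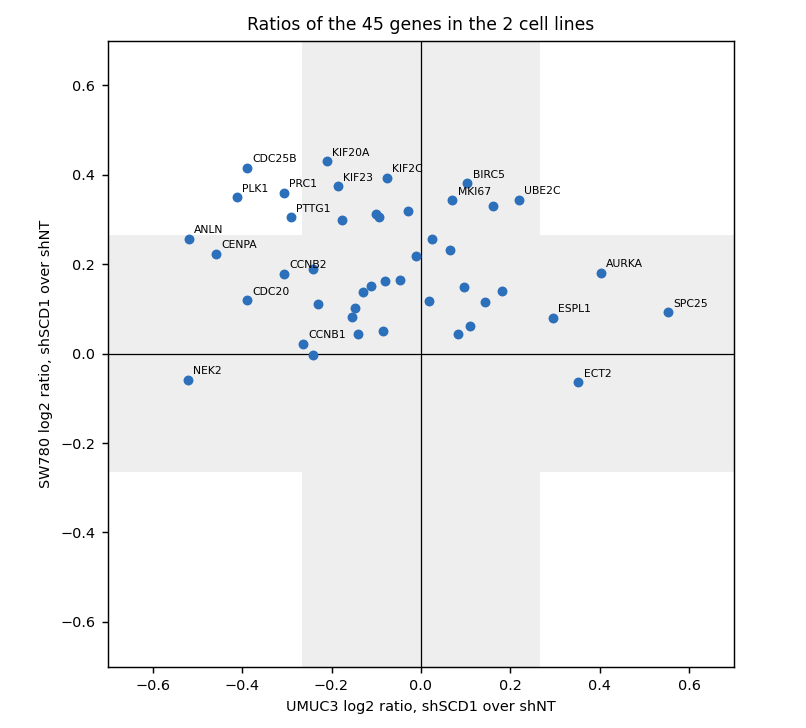
Log2 ratio of shSCD1 over shNT in UMUC3 (horizontal axis) and SW780 (vertical axis), 1 point per gene, with grey bands for sizes under 1.2-fold. The upper left corner, outside both bands, holds CDC25B, PLK1, PRC1 and PTTG1, lower in UMUC3 and higher in SW780. The whole upper left quadrant holds 27 genes, and ECT2 lies alone in the lower right quadrant.

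On CPM over the 15415 genes in both tables, which were scaled separately, 33 of 45 genes were higher in UMUC3 than in SW780 among shSCD1 libraries and 37 among shNT libraries, where 44.4% and 42.8% of the 11152 genes kept in both lines were. The median log2 difference (UMUC3 over SW780) was 0.32 in shSCD1 and 0.66 in shNT, against −0.14 and −0.19 over all genes. For 32 of 45 the line difference in shNT was larger in size than either knockdown ratio, a share near the 75.5% of all genes. CDC25B had the largest, at 1.68 in shSCD1 and 2.48 in shNT, and PRC1 the largest the other way, at −1.52 and −0.86. The line difference was smaller in size in shSCD1 than in shNT for 31 of 45 genes, and for 49.1% of all genes. For 8 genes the order of the lines differed between shSCD1 and shNT, as for 13% of all genes (PLK1, AURKA, KIF18B, KIF20A, NUSAP1, ASPM, MKI67 and ANLN). ANLN stood at 403 CPM in UMUC3 and 405 CPM in SW780 among shSCD1 libraries, against 578 and 339.8 CPM among shNT libraries. The shSCD1 libraries of the lines were thus almost equal in ANLN, and the shNT libraries were not.

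Over both lines together, with cell line as a block and 1 residual degree of freedom, edgeR's quasi-likelihood test gave none of the 45 genes an adjusted p (Benjamini-Hochberg) under 0.05, and none of the 13554 genes tested (0%). At an unadjusted p under 0.05 it gave 0 of the 45, where 3.08% of all genes lay. DESeq2 called 26 genes at an adjusted p under 0.05, none of them among the 45. AURKA had the lowest unadjusted p of the 45 (0.117; adjusted p 0.986 in edgeR), with a log2 fold change of 0.29 and a higher level in the shSCD1 library of both lines. The fitted log2 fold changes over both lines ran from −0.30 (NEK2) to 0.33 (SPC25). The targeted gene SCD, 4.44-fold lower in UMUC3 and 6.43-fold lower in SW780, had an adjusted p of 0.722 in edgeR's quasi-likelihood test. That fit did not call even SCD, so its lack of calls cannot tell whether the 45 genes differed. These p-values measure how far the response varied between 2 lines and not between replicates.

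Other genes of the same machinery were listed from textbook roles, also with earlier results of these data known. The shares of all genes to read them against are 27.6% higher and 20.4% lower in UMUC3, and 15.8% higher and 14.5% lower in SW780. Of 32 other kinesin, spindle and centrosome genes, 3 were higher and 10 lower by 1.2-fold in UMUC3 (median ratio −0.0066), and 7 higher and 2 lower in SW780 (median 0.12). In UMUC3, 16 of these 32 genes lay above 0 (against 54.3% of all genes), and the sign of their median changed between scalings (−0.088 to 0.0010). HAUS6, a subunit of the augmin complex that seeds spindle microtubules, was alone past 1.5-fold in that list, 1.54-fold higher (1.49 to 1.60) in UMUC3 and 1.24-fold lower (1.14 to 1.35) in SW780. Of 37 other kinetochore and checkpoint genes, 15 were higher and 2 lower by 1.2-fold in UMUC3 (median ratio 0.14), and 6 higher and 1 lower in SW780 (median 0.033). Besides SPC24, those past 1.5-fold in either line were CENPK of the inner kinetochore (1.85-fold higher (1.68 to 2.04) in UMUC3, 1.41-fold lower (1.31 to 1.53) in SW780), SKA3, which couples kinetochores to microtubules (1.74-fold higher (1.57 to 1.92) and 1.19-fold higher (1.10 to 1.29)), and DSN1 of the MIS12 complex (1.63-fold higher (1.49 to 1.78) and 1.04-fold lower (0.977 to 1.11)). In UMUC3, 31 of these 37 genes lay above 0 (against 54.3% of all genes), and 24 by the authors' deposited fold change (against 45.7%). Among the 45, 3 of the 6 centromere and kinetochore genes lay above 0 (NUF2 not in every scaling).

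Of 18 other G2/M kinases, phosphatases and inhibitors, 6 were higher and 1 lower by 1.2-fold in UMUC3 (median ratio 0.10), and 2 higher and 1 lower in SW780 (median 0.067). CDC25A, the phosphatase that acts already at G1/S, stood at 29.7 CPM (shSCD1) and 14.9 CPM (shNT) in UMUC3, and 25.4 CPM (shSCD1) and 27.4 CPM (shNT) in SW780, 1.99-fold higher (1.76 to 2.26) in UMUC3. MASTL, the Greatwall kinase that holds back the phosphatase opposing CDK1, stood at 74.3 CPM (shSCD1) and 39.2 CPM (shNT) in UMUC3, and 56.7 CPM (shSCD1) and 49.3 CPM (shNT) in SW780, 1.90-fold higher (1.75 to 2.05) in UMUC3. CDK2, the partner of cyclins E and A, was 1.55-fold higher (1.45 to 1.65) in UMUC3 and 1.05-fold lower (1.01 to 1.10) in SW780. The 3 CDC25 phosphatases thus had ratios of 0.95 (CDC25A), −0.39 (CDC25B) and 0.10 (CDC25C) in UMUC3, and −0.10 (CDC25A), 0.42 (CDC25B) and 0.15 (CDC25C) in SW780. Of 17 APC/C subunits and regulators, 2 were higher and 1 lower by 1.2-fold in UMUC3 (median ratio −0.11), and 1 higher and 1 lower in SW780 (median −0.094). Of 16 condensin and cohesin genes, 1 was higher and 1 lower by 1.2-fold in UMUC3 (median ratio 0.023), and 1 higher and 1 lower in SW780 (median 0.066). The UMUC3 median of condensin and cohesin genes also changed sign between scalings (−0.058 to 0.031).

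The regulators of these promoters come next. Of 17 MuvB, DREAM and B-MYB genes, 11 were higher and 2 lower by 1.2-fold in UMUC3 (median ratio 0.28), and 3 higher and 0 lower in SW780 (median 0.012). MYBL2, which encodes B-MYB, the partner of MuvB that switches the late genes on, stood at 99.7 CPM (shSCD1) and 105 CPM (shNT) in UMUC3, and 217 CPM (shSCD1) and 132 CPM (shNT) in SW780. It was 1.05-fold lower (0.997 to 1.11) in UMUC3 and 1.65-fold higher (1.59 to 1.72) in SW780. E2F4, the repressor partner of MuvB in resting cells, was 1.72-fold higher (1.61 to 1.83) in UMUC3 and 1.17-fold higher (1.11 to 1.24) in SW780. E2F5, a repressor of the same kind, was 1.76-fold higher (1.59 to 1.95) in UMUC3 and had a ratio of 0.074 in SW780. E2F8, an atypical repressor of E2F targets, was 1.67-fold higher (1.49 to 1.88) and 1.14-fold lower (1.00 to 1.31). The core MuvB subunits had ratios of 0.37 (RBBP4), 0.26 (LIN9), −0.27 (LIN37), 0.27 (LIN52) and 0.050 (LIN54) in UMUC3, and of 0.037 (RBBP4), 0.0043 (LIN9), −0.087 (LIN37), 0.29 (LIN52) and −0.047 (LIN54) in SW780; these and CDKN1A were chosen for naming after their values were seen. CDKN1A, the p21 inhibitor whose induction lowers the late genes through DREAM, stood at 42.5 CPM (shSCD1) and 35.1 CPM (shNT) in UMUC3, and 298 CPM (shSCD1) and 309 CPM (shNT) in SW780. Of these regulators MYBL2 alone was past 1.5-fold in SW780, and E2F4, E2F5 and E2F8 in UMUC3.

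The DNA replication genes, which peak earlier in the cycle, serve as a comparison. Of 34 replication and G1/S genes, 25 were higher and 0 lower by 1.2-fold in UMUC3 (median ratio 0.48), and 8 higher and 0 lower in SW780 (median 0.14). Those with the largest ratios in either line were CCNE2, cyclin E2, 3.07-fold higher (2.70 to 3.50) in UMUC3 and 1.16-fold higher (1.07 to 1.26) in SW780, CLSPN, a checkpoint mediator at forks, 2.53-fold higher (2.32 to 2.77) and 1.21-fold higher (1.16 to 1.27), FEN1, a flap endonuclease, 1.94-fold higher (1.79 to 2.09) and 1.11-fold higher (1.07 to 1.16), and GINS3 of the replicative helicase 1.99-fold higher (1.73 to 2.28) and 1.55-fold higher (1.40 to 1.73). In UMUC3 the medians of replication genes and of the 45 late genes lay on opposite sides of that of all genes (0.48 and −0.094, against 0.037), whereas in SW780 both lay above it (0.14 and 0.18, against −0.0079).

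**Figure D5:**
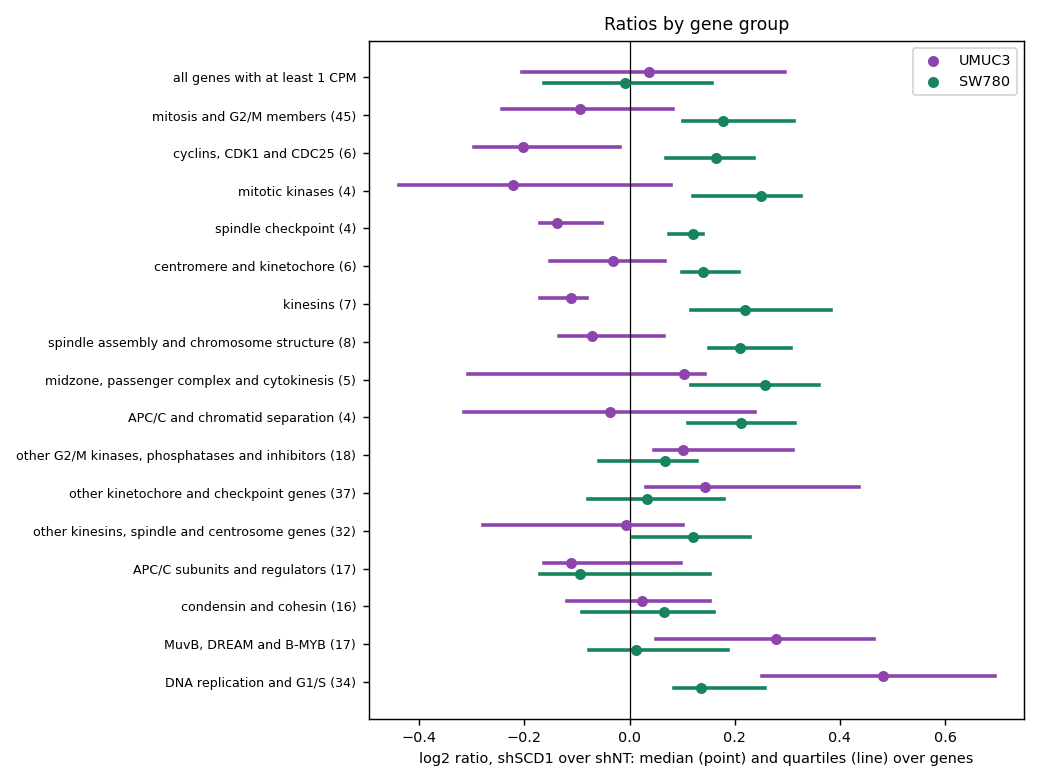
Median (point) and quartiles (line) over genes of the log2 ratio of shSCD1 over shNT, for all genes, the 45 genes, their roles, and other lists of the same machinery, with UMUC3 above SW780 in each row and the number of genes in brackets. In UMUC3 the 45 genes have a median of −0.094 and the DNA replication genes one of 0.48.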

How the data were processed

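RNA of 4 libraries, 1 per group, was analysed from 1 deposited table per cell line. Per the submitters' processing notes, reads were placed on hg38; no source used here names the aligner, the counter or the use of strand. Per the file headers, each table gives GFOLD(0.01) and a log2 fold change, made by the authors, an empirical FDR (a p-value type of column, deposited as 1 for every gene and not used) and 2 columns headed RPKM. The deposited signal in these 2 columns proved to be reads per gene, not divided by gene length, after each library was brought to one common sum; at least 99.9% of the values above 0, divided by the library's step, lay within 0.1 of a whole number, so reads were recovered by division. CPM was computed from these reads, and RPKM from GENCODE 29 exon lengths.

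A gene was kept where either library reached 1 CPM, and 1 CPM was added before taking log2. The interval of a fold was converted from the exact Clopper-Pearson interval of the share of a gene's reads that came from shSCD1. A gene was called past a size of 1.2-fold, 1.5-fold or 2-fold on the log2(CPM + 1) scale. A fit over both lines used edgeR 4.0.16, with DESeq2 1.42.0 as an alternative (R 4.3.3; Python 3.11.15). The steps were tested on simulated data in which a changed gene had the same fold in both lines. There the edgeR fit over both lines called 103 of 103 genes changed 3-fold and 68 of 97 changed 1.5-fold. With the real libraries that fit called no gene, SCD included, so the simulated recovery does not carry over to them. The members and lists were chosen with earlier results of these data known. Named genes were SCD, all members, and up to 4 genes of each of 7 companion lists past 1.5-fold in either line, plus those said to be chosen later.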

Additional observations from a re-analysis of the deposited data

Results flagged for a closer look

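In 4 genes the shSCD1 library was below the shNT library in UMUC3 and above it in SW780, past 1.2-fold in each, which is why they are listed. The difference of the log2 ratios (UMUC3 minus SW780) was −0.81 for CDC25B (−0.39 in UMUC3 and 0.42 in SW780). It was −0.76 for PLK1 (−0.41 and 0.35), −0.67 for PRC1 (−0.31 and 0.36) and −0.60 for PTTG1 (−0.29 and 0.30). With 1 library a group the difference was not tested, and 3.61% of all genes met the same description, and 7.02% did with either line the lower one. With a trend in GC content and length removed, PTTG1 was under 1.2-fold in UMUC3 (−0.25).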

How the results depend on the processing

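With 1 library a group no result has a replicate check, and no replicate could be left out. No paired analysis was possible because the labels number no replicates; the block of the fit over both lines was the cell line. Over the alternatives tried for pseudocount, scaling, filter, gene set, GC content and length, the median ratio of the 45 genes ran from −0.18 to −0.086 in UMUC3 and from 0.17 to 0.21 in SW780. The count above 0 ran from 12 to 16 in UMUC3 and from 42 to 43 in SW780. The count lower by 1.2-fold in UMUC3 ran from 9 to 15, and the count higher in SW780 from 15 to 18. Leaving out NUSAP1 and PRC1 was a choice made after seeing the data. Without them, 15 of 43 genes were above 0 (against 54.3% of all genes) and 9 lower by 1.2-fold (against 20.4%) in UMUC3. In SW780, 40 of 43 were above 0 (against 48.5%) and 14 higher by 1.2-fold (against 15.8%). All 15 genes higher by 1.2-fold in SW780 stayed past that size in every alternative that kept the gene, as did 8 of 10 lower (not CCNB1 and PTTG1) and 3 of 4 higher (not ESPL1) in UMUC3. With the authors' deposited log2 fold change, whose scaling differs, the UMUC3 median was −0.18 and 2 genes (NEK2 and ANLN) were past 1.5-fold. With all reads of each table as the total, the summed share was 0.851% in UMUC3 shSCD1, 0.915% in UMUC3 shNT, 0.709% in SW780 shSCD1 and 0.604% in SW780 shNT. Per length of the longest transcript, the median level was 46.4 RPKM in UMUC3 shSCD1, 49.6 in UMUC3 shNT, 33.8 in SW780 shSCD1 and 30.3 in SW780 shNT. Over both lines DESeq2 called 26 genes and edgeR without a filter on low counts 1, none of them among the 45; the cause was not tested.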
